A study of Mus musculus with 15 samples.

Results

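The genes described are those whose level in both follicle-culture mouse embryonic stem cell lines, FpB6D2 and FpB6CBA, differed in the same direction from the level in OpB6D2, the line from ovulated oocytes. Arrays were averaged within a line, and a gene was called in a line when its difference from OpB6D2 was at least 2-fold with an adjusted p under 0.05 (limma, Benjamini-Hochberg over all genes tested). Of 12813 genes tested, 141 were called the same way in both lines. In both lines 38 genes were higher (0.297% of genes tested) and 103 were lower (0.804%), 1.1% together. Against OpB6D2, in FpB6D2 168 genes (1.31%) were called higher and 312 (2.44%) lower, 480 in all (3.75%), and in FpB6CBA 647 (5.05%) and 637 (4.97%), 1284 in all (10%). These 2 contrasts share the 3 OpB6D2 arrays and chose the genes, so the values against OpB6D2 below are a description and carry no test.

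Expression was measured on Affymetrix arrays, 3 per line, in 5 lines. FpB6D2 and FpB6CBA were parthenogenetic lines from oocytes grown in cultured preantral follicles, taken from 2-week-old prepubertal females of the B6D2F1 hybrid (C57BL6 mother, DBA2 father) and of the B6CBAF1 hybrid (C57BL6 mother, CBA/Ca father). OpB6D2 was parthenogenetic as well, from naturally ovulated oocytes of B6D2F1 mice. The 2 lines of fertilised origin were NmB6D2, from C57BL6 females mated with DBA2 males, and R1, which was bought and goes back to 129S1/SvImJ and 129X1/SvJ mice. Each line was 1 derivation, so that oocyte source and line cannot be told apart, and FpB6CBA differs from OpB6D2 in the cross as well. The labels do not say whether the 3 arrays of a line came from separate cultures, and the spread between them may be technical.

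Parthenogenetic embryos arise from an oocyte activated without sperm, so both of their chromosome sets are maternal. Maternal imprints, the DNA methylation marks that silence 1 parental allele of imprinted genes, are laid down while the oocyte grows inside its follicle. Growth in follicle culture moves that period into the dish, and an ovulated oocyte completes it in the ovary.

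All 3 parthenogenetic lines carried high levels of the embryonic stem cell factors. Log2 intensity of Pou5f1 was 11.35 to 11.41 on the FpB6CBA arrays and 11.97 to 12.05 on the OpB6D2 arrays, with FpB6D2 within the OpB6D2 range. That of Sox2 was 11.05 to 11.1, 10.95 to 11.06 and 11.16 to 11.25 in FpB6D2, FpB6CBA and OpB6D2. Nanog was lower in FpB6CBA alone among the 3, at 9.71, 9.82 and 9.89, against 11.45, 11.31 and 11.43 in FpB6D2 and 11.32, 11.21 and 11.32 in OpB6D2. No gene of the naive pluripotency list was called in both follicle lines (1.1% of all genes tested were called the same way). In FpB6CBA, however, 8 of its 29 genes tested were called lower (4.97% of all genes tested were).

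Several array measures moved with the groups. The mean level of the hybridisation controls, which are added to each labelled sample, was 10.02 to 10.11 on the FpB6D2 arrays, 9.71 to 10.41 on the FpB6CBA arrays and 9.50 to 9.58 on the OpB6D2 arrays. The difference between 3' and 5' actin probe sets, a measure of RNA integrity, was 0.616 to 0.651, 0.659 to 0.757 and 0.496 to 0.548 on the same arrays. The same difference for Gapdh was not larger in the follicle lines, at -0.079 to -0.033, 0.009 to 0.058 and 0.026 to 0.082. Array 3 of FpB6CBA stood apart from the other FpB6CBA arrays, with the lowest hybridisation controls (9.71) and the highest poly-A controls (8.85, against 8.01 and 8.05). Without that array 40 genes were higher and 91 lower in both follicle lines. With the hybridisation level as a covariate 117 of the 141 genes were still called the same way in both lines, and with the actin difference 107 were. The part of these measures in single genes was not tested further.

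The differences spanned a narrow range for most of the 141 genes. Among the 38 higher genes the median log2 difference from OpB6D2 was 1.36 in FpB6D2 (1.03 to 3.64) and 1.61 in FpB6CBA (1.00 to 4.31). Among the 103 lower genes it was -1.26 in FpB6D2 and -1.34 in FpB6CBA, with largest falls of 2.73 and 2.81. The medians over all genes tested were 0.02 in both lines. For 19 of the higher and 79 of the lower genes the 2 lines differed from OpB6D2 by amounts within 0.5 log2 units of each other. On every one of the 141 genes the 6 follicle-line arrays did not overlap the 3 OpB6D2 arrays, which was also the case for 14.5% (above) and 15.5% (below) of all genes tested.

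**Figure D1:**
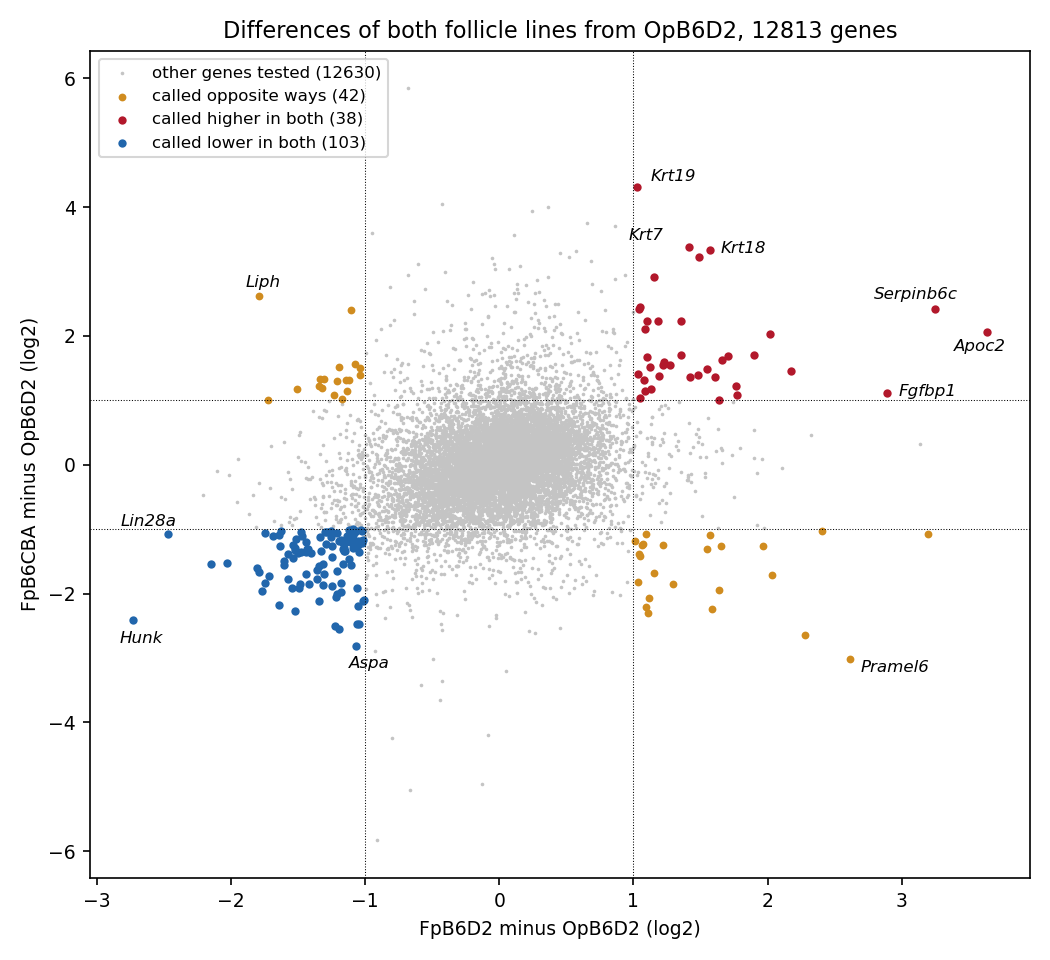
Log2 difference from OpB6D2 in FpB6D2 (horizontal axis) and in FpB6CBA (vertical axis), each point 1 of 12813 genes; dotted lines mark a 2-fold difference. The 38 genes higher in both lines lie at the upper right, the 103 lower in both at the lower left, and 42 genes called opposite ways occupy the other 2 corners.

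The keratins of simple epithelia formed the clearest group among the higher genes. Krt8 and Krt18 pair to form the intermediate filaments of simple epithelia, and with Krt7 and Krt19 they are among the first keratins of the embryo, prominent in trophectoderm, the outer layer of the blastocyst. All 4 were called higher in both follicle lines. Krt8 and Krt18 lie next to each other on chromosome 15 with no other tested gene between them, Krt7 lies on the same chromosome and Krt19 on chromosome 11. Because Krt8 and Krt18 are neighbours that moved together, the 250 bases before the start of each gene, and of Krt7, are shown with the GC box GGGCGG in capitals on either strand (RefSeq, GRCm38.p6, written 5' to 3' on the strand of the gene). The regions are chr15:101412153-101412402 on the plus strand for Krt7, chr15:102004343-102004592 on the minus strand for Krt8 and chr15:102027966-102028215 on the plus strand for Krt18.
Krt7: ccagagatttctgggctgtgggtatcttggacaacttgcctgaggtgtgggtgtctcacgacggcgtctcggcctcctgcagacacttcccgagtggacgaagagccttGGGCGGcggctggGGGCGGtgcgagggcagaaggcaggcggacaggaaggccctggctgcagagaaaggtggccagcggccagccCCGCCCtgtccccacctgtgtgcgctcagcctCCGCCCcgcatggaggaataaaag
Krt8: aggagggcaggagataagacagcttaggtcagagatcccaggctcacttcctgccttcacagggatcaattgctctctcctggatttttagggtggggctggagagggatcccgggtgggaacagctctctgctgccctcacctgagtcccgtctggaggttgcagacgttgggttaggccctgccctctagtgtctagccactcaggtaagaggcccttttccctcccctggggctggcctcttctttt
Krt18: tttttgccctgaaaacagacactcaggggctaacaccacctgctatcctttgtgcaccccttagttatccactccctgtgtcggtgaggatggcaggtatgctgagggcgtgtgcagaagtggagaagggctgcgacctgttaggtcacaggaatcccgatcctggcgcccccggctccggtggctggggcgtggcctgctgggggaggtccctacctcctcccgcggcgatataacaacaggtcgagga

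The Krt7 region held 4 GC boxes, 2 on each strand, and the Krt8 and Krt18 regions held none. The GC box is the letters read by Sp and Klf factors, among them Sp3, which is 1 of the lower genes below. It was found in 43.8% of 32 such regions of 26 higher genes, in 50.5% of 111 regions of 79 lower genes and in 56.4% of 13201 regions of all genes tested that have an entry. Over all 32851 regions in the table the share was 32.7%. The TATA box letters TATAAA, on either strand, were in none of the 3 keratin regions, in 3.12% of the regions of higher genes, 7.21% of those of lower genes and 6.57% of those of all genes tested (12.4% of all regions).

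Krt18 (probe set 1448169_at) measured 9.23, 9.38 and 9.26 on the FpB6D2 arrays, 11.16, 11.05 and 10.96 on the FpB6CBA arrays and 7.58, 7.97 and 7.61 on the OpB6D2 arrays (log2 intensity, here and below). Its partner Krt8 (1420647_a_at) measured 9.25, 9.24 and 9.18 in FpB6D2, 11.05, 11.08 and 10.72 in FpB6CBA and 7.68, 8.03 and 7.49 in OpB6D2. The 3 lines formed 3 separate steps for both genes, with OpB6D2 lowest and FpB6CBA highest. Against OpB6D2, Krt18 was 2.97-fold higher in FpB6D2 (log2 difference 1.57, SE 0.10) and 10.1-fold higher in FpB6CBA (3.34, SE 0.10). Krt8 was 2.81-fold and 9.31-fold higher, and its other 2 probe sets gave log2 differences of 1.27 and 1.51 in FpB6D2 and of 2.93 and 3.05 in FpB6CBA.

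Krt7 (1423952_a_at) measured 5.86, 5.96 and 5.90 in FpB6D2, 8.07, 7.87 and 7.71 in FpB6CBA and 4.57, 4.58 and 4.34 in OpB6D2. Krt19 (1417156_at) measured 6.67, 6.94 and 6.74, then 10.19, 10.08 and 9.92, and 5.61, 5.99 and 5.67 in the same order. Krt19 combined the largest difference in FpB6CBA of all 141 genes (4.31, SE 0.10, 19.8-fold) with a difference in FpB6D2 just past 2-fold (1.03, SE 0.10). The FpB6D2 difference of Krt19 was 0.86 with the actin covariate and 0.90 with the hybridisation covariate, and 0.95, 0.96 and 0.99 without FpB6D2 array 2, OpB6D2 array 1 and OpB6D2 array 5, each below the 2-fold limit.

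For Krt8, Krt18 and Krt19 the fertilised lines lay near FpB6CBA and above FpB6D2. Krt18 averaged 11.28 ± 0.06 in NmB6D2 and 10.88 ± 0.10 in R1 (SD, n = 3 arrays), and Krt8 averaged 11.24 ± 0.11 and 11.05 ± 0.09. Thus OpB6D2 was the lowest of the 5 lines for these keratins and FpB6D2 the next lowest. Krt19 averaged 9.29 in NmB6D2 and 10.25 in R1, against 6.78 in FpB6D2. Krt7 was high in NmB6D2 (8.57 ± 0.04) and low in R1 (4.80 ± 0.24).

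Of 18 genes of the trophectoderm list tested, 5 were called higher in both follicle lines (the 4 keratins and Dkkl1) and 0 lower in both; the background is 0.297% and 0.804% of genes tested. The list medians were 0.45 in FpB6D2 and 0.46 in FpB6CBA. In FpB6D2 6 genes of the list were called higher and 0 lower (1.31% and 2.44% of all genes tested). In FpB6CBA these counts were 7 and 0 (5.05% and 4.97%). The genes called in both lines included no transcription factor. Of the factors in the list, Cdx2 differed by 0.40 and 0.24, Eomes by 0.16 and 0.25, and Tfap2c by -0.79 and -0.81 (log2, FpB6D2 then FpB6CBA). Not every factor of the list is given here. Tead4, which acts upstream of Cdx2, was called higher in FpB6D2 alone (1.80, against 0.26 in FpB6CBA), and it differed between the follicle lines by -1.53. The summed intensity of the list was 1345 to 1518 on the OpB6D2 arrays, 2345 to 2433 in FpB6D2 and 5825 to 6851 in FpB6CBA. In the epithelial list, 4 of 25 genes were called higher in both lines, all of them keratins, and the list medians were 0.17 in FpB6D2 and 1.5 in FpB6CBA. The junction genes Cldn6, Cldn7, Dsp and Tjp3 differed by 3.00, 3.57, 4.00 and 3.32 in FpB6CBA and by -0.40, 0.11, 0.36 and 0.58 in FpB6D2. The part of trophectoderm-like or epithelial-like cells in the keratin values was not tested.

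**Figure D2:**
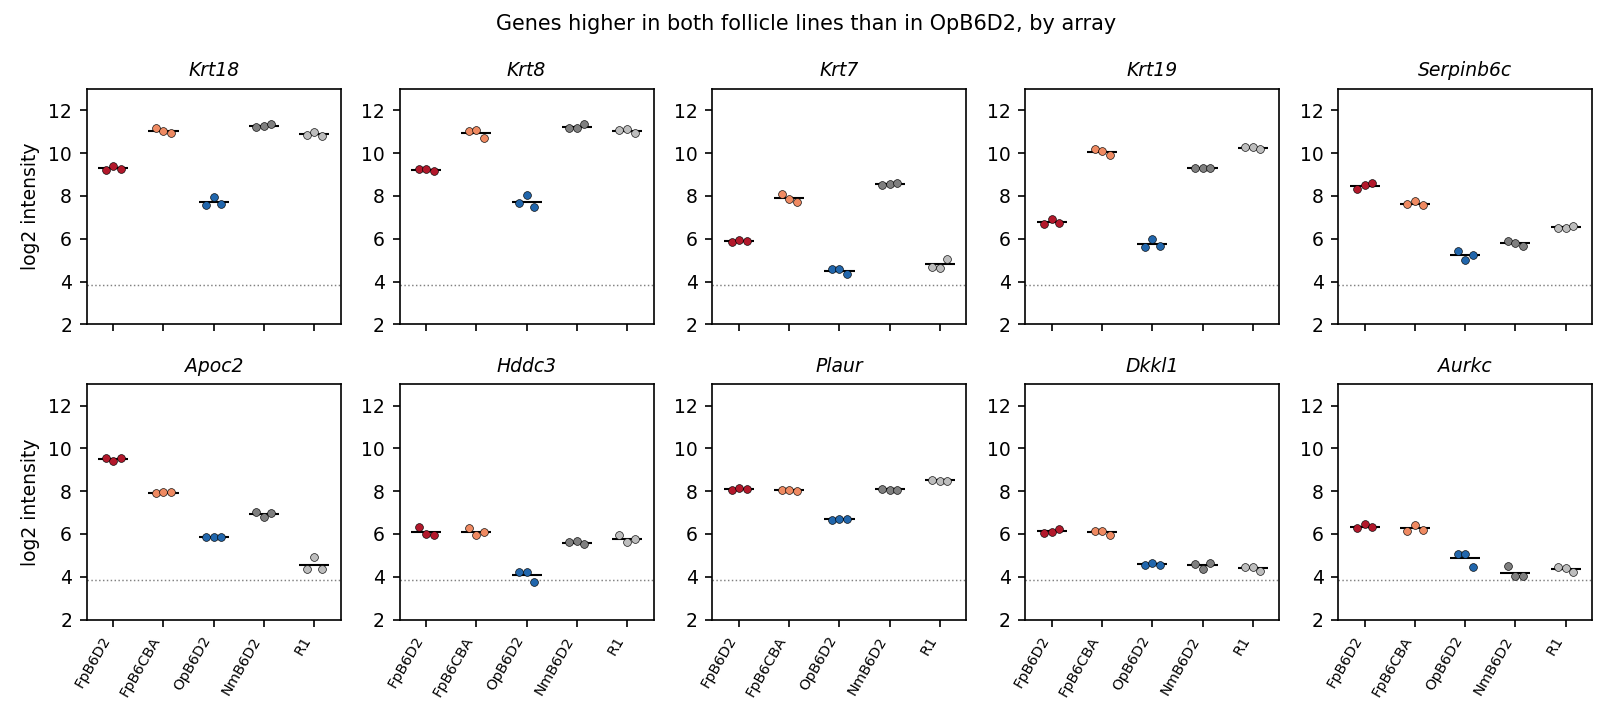
Log2 intensity on each array (points, 3 per line) and line mean (bars) of 10 genes higher in both follicle lines; the dotted line is the filter value of 3.864. OpB6D2 lies below both follicle lines in every panel, and the fertilised lines NmB6D2 and R1 lie near both follicle lines for Hddc3 and Plaur, near FpB6CBA and above FpB6D2 for Krt8, Krt18 and Krt19, and below both for Serpinb6c, Apoc2, Dkkl1 and Aurkc.

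Serpinb6c (1451594_s_at), a member of the clade B serine protease inhibitors, measured 8.31, 8.52 and 8.59 in FpB6D2, 7.62, 7.76 and 7.56 in FpB6CBA and 5.42, 5.01 and 5.25 in OpB6D2. That is 9.48-fold and 5.36-fold above OpB6D2 (3.25, SE 0.10, and 2.42, SE 0.10). The name of this probe set marks it as matching several transcripts, so related serpins may add to its signal. Serpinb1a, which belongs to the same cluster on chromosome 13 with 3 tested genes between them, was also called higher in both lines, with an OpB6D2 mean under the filter value of 3.864, so that the folds are at least 1.34 and 1.33.

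Apoc2 (1418069_at), an apolipoprotein that activates lipoprotein lipase, measured 9.55, 9.41 and 9.55 in FpB6D2, 7.90, 7.94 and 7.96 in FpB6CBA and 5.88, 5.86 and 5.87 in OpB6D2. Its 12.4-fold difference in FpB6D2 was the largest of any of the 141 genes in that line, and it was 4.17-fold in FpB6CBA. Apoc2 was the 1 gene of 23 of the primitive and visceral endoderm list called higher in both lines (0.297% of all genes tested were). That list had medians of 0.00 in FpB6D2 and 1.32 in FpB6CBA. In FpB6CBA 13 of its genes were called higher and 0 lower (5.05% and 4.97% of all genes tested). In FpB6D2, 2 were called higher and 2 lower (1.31% and 2.44%). Lrp2, of the same list, was called opposite ways in the follicle lines.

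Receptors that take up lipoproteins or other ligands also stood among the higher genes. Vldlr, the very low density lipoprotein receptor, measured 7.52, 7.68 and 7.54 in FpB6D2, 9.49, 9.26 and 9.28 in FpB6CBA and 6.41, 6.49 and 6.38 in OpB6D2. Its difference rested on the probe set: the brightest of those not marked as matching several transcripts gave 0.33 and 0.40, and 1417900_a_at gave 0.63 and 3.01. Sorl1, a sorting receptor of the same receptor family, differed by 1.27 (SE 0.09) and 1.55 (SE 0.09), but its other probe set gave 0.40 and 0.36 and averaging gave 0.63 and 0.74. Plaur, the receptor of urokinase plasminogen activator, measured 8.06, 8.13 and 8.12 in FpB6D2, 8.06, 8.04 and 8.02 in FpB6CBA and 6.64, 6.72 and 6.68 in OpB6D2. The 2 follicle lines were nearly equal for Plaur, 2.68-fold and 2.56-fold above OpB6D2.

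Among ligands, Hbegf, a growth factor of the EGF family that is shed from the cell surface, measured 8.81, 8.75 and 8.65 in FpB6D2, 9.15, 9.12 and 8.97 in FpB6CBA and 7.48, 7.5 and 7.15 in OpB6D2. Its FpB6D2 difference of 1.36 was 0.89 with probe sets averaged. Fgfbp1, which releases FGFs from the matrix, measured 7.48, 7.56 and 7.63, then 5.80, 5.74 and 5.80, and 4.93, 4.22 and 4.84. For Fgfbp1 the FpB6D2 arrays were 7.43-fold over OpB6D2, and FpB6CBA was 2.17-fold over it. The fertilised lines lay near FpB6D2, at 6.88, 6.91 and 6.96 in NmB6D2 and 7.5, 7.25 and 7.36 in R1. Without OpB6D2 array 4, which was the lowest, the FpB6CBA difference was 0.90 and below the limit.

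Genes of the germ line and of the X-linked Rhox cluster contributed single members. Sycp3, a component of the synaptonemal complex that joins meiotic chromosomes, measured 6.72, 6.36 and 6.78 in FpB6D2, 7.94, 8.0 and 8.05 in FpB6CBA and 5.50, 5.61 and 5.62 in OpB6D2. It was the 1 of 22 germ-line genes called higher in both lines, and 0 were called lower in both (0.297% and 0.804% of all genes tested). Its FpB6D2 difference of 1.04 was 0.99 without FpB6D2 array 1 and 0.96 without FpB6D2 array 3, short of the limit. In FpB6CBA 8 genes of that list were called higher (5.05% of all genes tested were). In FpB6D2, 1 was called higher and 3 lower (1.31% and 2.44% of all genes tested). Aurkc, the aurora kinase of meiosis and the early embryo, measured 6.27, 6.45 and 6.31, then 6.16, 6.41 and 6.20, and 5.05, 5.05 and 4.47 in OpB6D2. Dkkl1, a secreted relative of the Dickkopf proteins, measured 6.06, 6.11 and 6.22 in FpB6D2, 6.14, 6.12 and 5.96 in FpB6CBA and 4.57, 4.62 and 4.56 in OpB6D2. Both genes were nearly equal in the follicle lines and close to the OpB6D2 level or below it in NmB6D2 and R1 (4.54 and 4.40 for Dkkl1, 4.19 and 4.35 for Aurkc). Rhox9, a homeobox gene of the Rhox cluster, differed by 1.12 and 1.51 (0.91 in FpB6D2 with the hybridisation covariate and 0.88 with the actin covariate), and its relative Rhox6 by 0.89 and 1.55.

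Hddc3, a nucleotide hydrolase, measured 6.31, 6.0 and 5.96 in FpB6D2, 6.26, 5.94 and 6.09 in FpB6CBA and 4.24, 4.21 and 3.76 in OpB6D2, a difference of 2.02 and 2.03 (SE 0.13), or 0.93 and 0.97 with its probe sets averaged. The calcium-binding protein S100a1 differed by 1.66 and 1.63 (SE 0.11), and Lrig3, a membrane protein with leucine-rich repeats, by 1.70 and 1.69 (SE 0.11). For S100a1 the probe set marked as specific gave 0.66 in FpB6D2, and for Lrig3 averaging gave 0.96 in FpB6CBA, both short of the limit. Stard8, on the X chromosome, differed by 2.18 and 1.46 (SE 0.12). Gstm2, a glutathione transferase, differed by 1.10 and 2.23 (SE 0.10). It was the 1 of 21 glutathione-list genes called the same way in both lines (1.1% of all genes tested were). At the edge of the threshold, Tgfbi, an extracellular matrix protein, differed by 1.64 and 1.00. Its probe set marked as specific gave 0.46 and 0.13, and the FpB6CBA difference was 0.59 with the hybridisation covariate, 0.88 with the actin covariate and 0.79 to 0.99 without OpB6D2 array 5, FpB6CBA array 1 or FpB6CBA array 2. Just outside it lay Fcgr3 (0.99 and 1.03) and Gch1 (1.00 and 2.36, the first just short of 2-fold).

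The 103 lower genes included regulators of RNA, DNA methylation and transcription. Lin28a, an RNA-binding protein that blocks maturation of let-7 microRNAs, measured 7.24, 7.19 and 6.80 in FpB6D2, 8.42, 8.4 and 8.59 in FpB6CBA and 9.60, 9.55 and 9.50 in OpB6D2 (1437752_at). It was 5.54-fold lower in FpB6D2 (-2.47, SE 0.10) and 2.11-fold lower in FpB6CBA (-1.08, SE 0.10). A second Lin28a probe set, 1421749_at, disagreed on the line FpB6CBA: it differed by -0.60 in FpB6D2 and by 1.47 in FpB6CBA. With the probe sets averaged, the FpB6CBA difference was 0.20 (limma, adjusted p = 0.063). With the hybridisation covariate it was -0.96 and with the actin covariate -0.72, both short of the limit. The other 17 genes of the Lin28 and let-7 list included 0 called in both lines (1.1% of all genes tested were called the same way).

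Dnmt3a, a de novo DNA methyltransferase, measured 7.89, 8.0 and 7.83 in FpB6D2, 7.55, 7.55 and 7.26 in FpB6CBA and 9.02, 9.04 and 8.96 in OpB6D2. All 5 of its probe sets were lower in both lines, the other 4 by 0.94 to 2.06 in FpB6D2 and by 0.86 to 2.30 in FpB6CBA on the log2 scale. Tet1, which oxidises 5-methylcytosine, measured 8.84, 9.02 and 9.01, then 9.14, 9.37 and 8.79, and 10.17, 10.18 and 10.15 in OpB6D2. Its other probe sets differed by -1.63 and -1.02, and by -0.79 and 0.77, so that 1 of 3 was higher in FpB6CBA. Without FpB6CBA array 3 the Tet1 difference was -0.91. These were the 2 of 20 genes of the DNA methylation list called in both lines (0.804% of all genes tested were lower in both). The other members included Dnmt3b (-0.78 and -0.39), Uhrf1 (-1.0 and -0.74), which guides maintenance methylation, and Dnmt1 (-0.05 and 0.19). Dnmt3a was 9.04 ± 0.07 in NmB6D2 and 6.26 ± 0.07 in R1, so the fertilised lines lay on either side.

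Sp3, a zinc-finger factor that binds GC boxes, measured 6.69, 6.57 and 6.62 in FpB6D2, 6.32, 6.86 and 6.70 in FpB6CBA and 8.35, 8.31 and 8.37 in OpB6D2. Its level in NmB6D2 (8.4 ± 0.12) and R1 (8.31 ± 0.13) was that of OpB6D2. The follicle lines were 3.29-fold below OpB6D2. Setd5, a SET-domain protein linked to chromatin, differed by -1.48 and -1.85 (SE 0.11), and Tasor2, a relative of the HUSH silencing subunit Tasor, by -1.77 and -1.96 (SE 0.12). Other Setd5 probe sets differed by -1.17 and 0.04 and by -0.48 and -0.81, and averaging gave -0.88 in FpB6CBA. With all probe sets averaged the Tasor2 differences were -0.85 and -0.92.

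Imprinted genes of both kinds stood among the lower genes. Nnat, a paternally expressed proteolipid gene on chromosome 2, measured 6.44, 6.67 and 6.15 in FpB6D2, 6.86, 6.88 and 6.65 in FpB6CBA and 7.96, 8.01 and 8.19 in OpB6D2. Zdbf2, a paternally expressed gene on chromosome 1, measured 6.97, 6.97 and 6.65, then 5.50, 5.60 and 5.42, and 8.09, 8.03 and 8.05 in OpB6D2. OpB6D2 thus had measurable signal for genes normally expressed from the paternal allele, and both follicle lines had less of it. The follicle lines were 3.10-fold and 2.39-fold lower for Nnat and 2.29-fold and 5.84-fold lower for Zdbf2. Peg12, also paternally expressed, was near the filter value of 3.864 in OpB6D2 (3.97, 3.73 and 4.39) and below it in both follicle lines, at least 1.12-fold lower. Its FpB6D2 call was lost without OpB6D2 array 5 (-0.91) and with the hybridisation covariate (-0.98). The fertilised lines NmB6D2 and R1 did not lie on 1 side for these genes. They averaged 8.71 and 4.17 for Nnat, 6.83 and 8.75 for Zdbf2, and 2.69 and 4.22 for Peg12.

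Among maternally expressed genes, Meg3 and Mirg, noncoding RNAs of the same imprinted cluster on chromosome 12 with 1 tested gene between them, were lower in both lines. Mirg measured 4.86, 4.68 and 5.31 in FpB6D2, 5.13, 4.54 and 4.59 in FpB6CBA and 6.4, 6.69 and 6.49 in OpB6D2. Meg3 measured 6.66, 6.58 and 6.58, then 7.65, 7.14 and 7.08, and 8.32, 8.48 and 8.26 in OpB6D2. NmB6D2 and R1 averaged 5.33 and 6.25 for Mirg, and 8.18 and 7.74 for Meg3. Rian, of the same cluster, differed by -1.56 and -0.89, the second short of the limit. The Meg3 difference in FpB6CBA was -0.98 without FpB6CBA array 2, -0.96 without array 3 and -0.44 with its probe sets averaged, each short of the limit. Averaging gave -0.74 in FpB6D2, also short of it. Of 8 other Meg3 probe sets tested, 2 were called lower in both lines. The other Mirg probe set differed by -0.58 and -0.67, short of the limit in both. Tfpi2, a protease inhibitor of the Kunitz type, differed by -1.16 and -1.21 (SE 0.17), and by -0.97 in FpB6CBA without array 3.

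In all, 3 of 24 paternally expressed and 3 of 30 maternally expressed genes tested were called lower in both follicle lines. Called higher in both were 0 of either kind. Over all genes tested the shares were 0.804% lower and 0.297% higher in both. Called lower in FpB6D2 were 4 paternally and 5 maternally expressed genes (2.44% of all genes tested were), and in FpB6CBA 7 and 3 (4.97%). Called higher were 0 and 0 in FpB6D2, and 3 and 5 in FpB6CBA (5.05% of all genes tested). The list medians were -0.11 and -0.36 for paternally expressed genes and -0.07 and 0.10 for maternally expressed genes (FpB6D2 then FpB6CBA). The largest imprinted differences were not shared: Peg3 differed by -5.04 in FpB6CBA and -0.66 in FpB6D2, and Mest by -2.89 and -0.93.

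**Figure D3:**
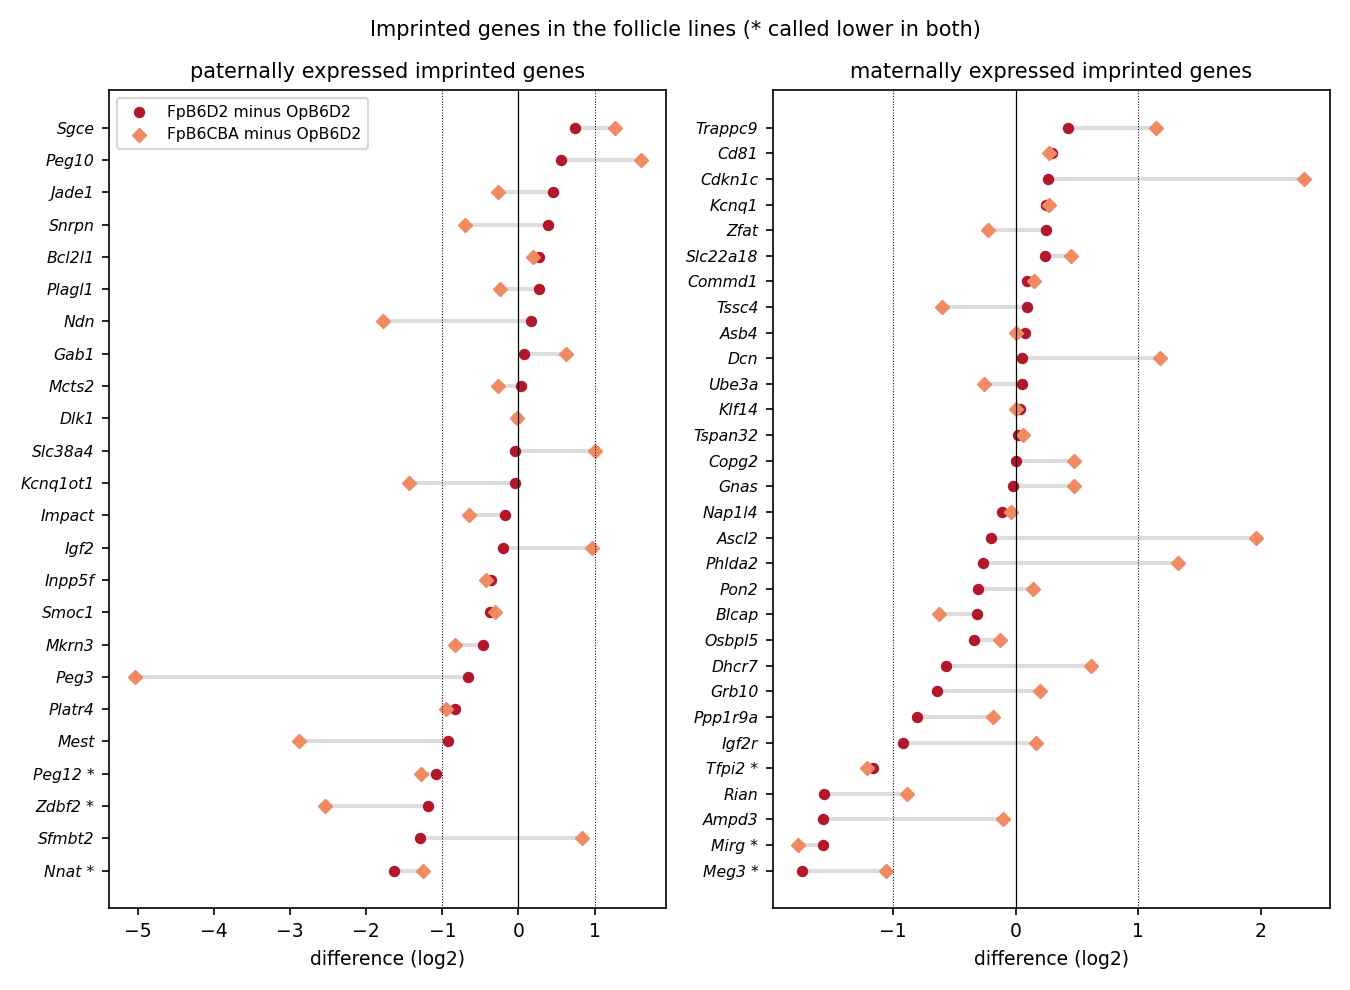
Log2 difference from OpB6D2 (horizontal axis) of each imprinted gene tested, in FpB6D2 (circles) and FpB6CBA (diamonds), with dotted lines at a 2-fold difference. The 3 paternally and 3 maternally expressed genes marked with an asterisk are those called lower in both lines, with Peg12 under the filter value in both, while Peg3 and Mest are past it in FpB6CBA alone.

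Signalling genes made up a further set of lower genes. Dusp6, the phosphatase that inactivates ERK and is itself induced by it, measured 7.65, 7.70 and 7.81 in FpB6D2, 7.41, 7.57 and 7.43 in FpB6CBA and 9.12, 9.21 and 9.14 in OpB6D2. It was 2.71-fold and 3.22-fold lower, and the fertilised lines lay with OpB6D2 (9.19 ± 0.03 in NmB6D2 and 9.40 ± 0.06 in R1). Dusp6 was the 1 of 25 FGF-ERK genes called in both lines (0.804% of all genes tested were lower in both). The ERK targets Etv4 (-0.73 and -0.86) and Etv5 (-0.54 and -1.07) were lower by less, while Spry4 differed by 0.34 and -1.92 and Spry2 by 0.37 and -0.74. The list medians were 0.09 and -0.16.

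Hunk, a serine/threonine kinase related to AMPK, showed the largest fall in FpB6D2 of the 103 lower genes. It measured 4.73, 4.82 and 4.69 in FpB6D2, 4.96, 5.30 and 4.93 in FpB6CBA and 7.5, 7.49 and 7.43 in OpB6D2, 6.63-fold and 5.32-fold lower. NmB6D2 and R1, at 6.90 and 8.58, lay well above the follicle lines. Otub1, a deubiquitinase, was read by 2 probe sets that disagreed: the brighter differed by -2.03 and -1.53 (SE 0.19) and the other by 0.08 and -0.30. Rnf125, a ubiquitin ligase, differed by -1.60 and -1.55 (SE 0.12), and Nod1, a sensor of bacterial peptidoglycan, by -1.79 and -1.66 (SE 0.14). Dapp1, an adaptor of phosphoinositide signalling, measured 5.39, 5.37 and 5.24 in OpB6D2 with follicle-line means under the filter value, and was at least 2.77-fold lower in each.

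The Wnt list held 2 of 31 genes called lower in both lines and 0 higher in both (0.804% and 0.297% of all genes tested). Wnt5a, a ligand of the noncanonical pathway, measured 3.68, 4.15 and 3.99 in FpB6D2, 3.40, 3.38 and 3.08 in FpB6CBA and 5.11, 5.49 and 4.74 in OpB6D2. Sfrp2, a secreted Wnt antagonist, measured 4.87, 4.17 and 4.35, then 4.37, 4.06 and 3.90, and 5.44, 5.73 and 5.58 in OpB6D2. All these values are low on the scale of the arrays. The other Wnt5a probe sets differed by -0.11 and -0.28 and by -0.52 and -0.60, averaging gave -0.46 and -0.65, and the FpB6D2 difference was -0.99 without OpB6D2 array 4. That of Sfrp2 was -0.97 without FpB6D2 array 2. The canonical targets Axin2 (-0.64 and -0.45) and Sp5 (0.14 and 0.09) were not called, and the list medians were -0.06 and -0.10.

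Several lower genes are typical of mesenchymal cells. Prrx1, a homeobox factor of limb and connective-tissue mesenchyme, measured 5.96, 5.98 and 5.69 in FpB6D2, 5.97, 5.83 and 5.85 in FpB6CBA and 7.12, 7.01 and 7.03 in OpB6D2. Col5a2, a fibrillar collagen chain, measured 6.96, 6.94 and 6.73, then 7.29, 7.29 and 6.80, and 8.28, 8.35 and 7.90 in OpB6D2. Filip1l, an inhibitor of cell migration, was 3.35-fold lower in FpB6D2 and at least 3.48-fold lower in FpB6CBA. Cavin2, a coat protein of caveolae, was lower with all 3 of its probe sets, the other 2 by 2.48 and 1.96 in FpB6D2 and by 2.55 and 1.88 in FpB6CBA on the log2 scale. For Prrx1 the other probe sets moved little or differed in sign, and averaging gave -0.55 and -0.21. For Col5a2 averaging gave -0.79 and -0.71, and the FpB6CBA difference was -0.89 without FpB6CBA array 3 and -0.96 without OpB6D2 array 4 or with array weights.

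Fibroblast markers were also read as a whole list. Of 32 fibroblast and feeder genes tested 2 were called lower in both lines, Prrx1 and Col5a2 (0.804% of all genes tested were). In FpB6D2 3 were called lower and 0 higher (2.44% and 1.31% of all genes tested). In FpB6CBA 4 were called lower and 1 higher (4.97% and 5.05%). The list medians were -0.14 and -0.19. The summed intensity of the list was 18003 to 22488 on the OpB6D2 arrays, 16862 to 17397 in FpB6D2 and 16015 to 19001 in FpB6CBA. The fertilised lines lay on either side, with 11450 to 12433 in NmB6D2 and 27672 to 28903 in R1. Defining markers were measured in all 3 lines: Col1a1 averaged 7.05, 7.39 and 7.86 in FpB6D2, FpB6CBA and OpB6D2, and Col1a2 differed by -0.74 and -0.19. In these bulk samples fewer cells of a type and less RNA per cell cannot be told apart, and the part of feeder cells in the lower genes was not tested.

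The remaining large falls concerned a varied group. Cd99, a cell-surface glycoprotein, differed by -1.80 and -1.61 (SE 0.11), and its other 2 probe sets by -1.20 and -1.43 in FpB6D2 and by -1.24 and -1.49 in FpB6CBA. Rpgrip1, a protein of the photoreceptor cilium, measured 8.29, 8.25 and 8.25, then 7.40, 7.67 and 7.48, and 9.73, 9.88 and 9.76 in OpB6D2. With its probe sets averaged the Rpgrip1 differences were -0.32 and -0.55. The probe set annotated to the small nucleolar RNA Snord104 differed by -1.49 and -1.91 (SE 0.09), and Man2a1, a Golgi mannosidase, by -1.36 and -1.63 (SE 0.12). At the edge of the threshold lay Birc6 (-1.09 and -1.0), which was -0.61 in FpB6CBA without FpB6CBA array 3 and -0.94 without OpB6D2 array 4, and Hoxc8 (-1.03 and -1.01), which was under the filter value in both follicle lines and lost its call when any 1 of 4 arrays was left out (-0.94 to -0.99). Just outside it lay Atrx (-0.99 and -1.75) and Crebzf (-1.0 and -1.11, the first just short of 2-fold).

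**Figure D4:**
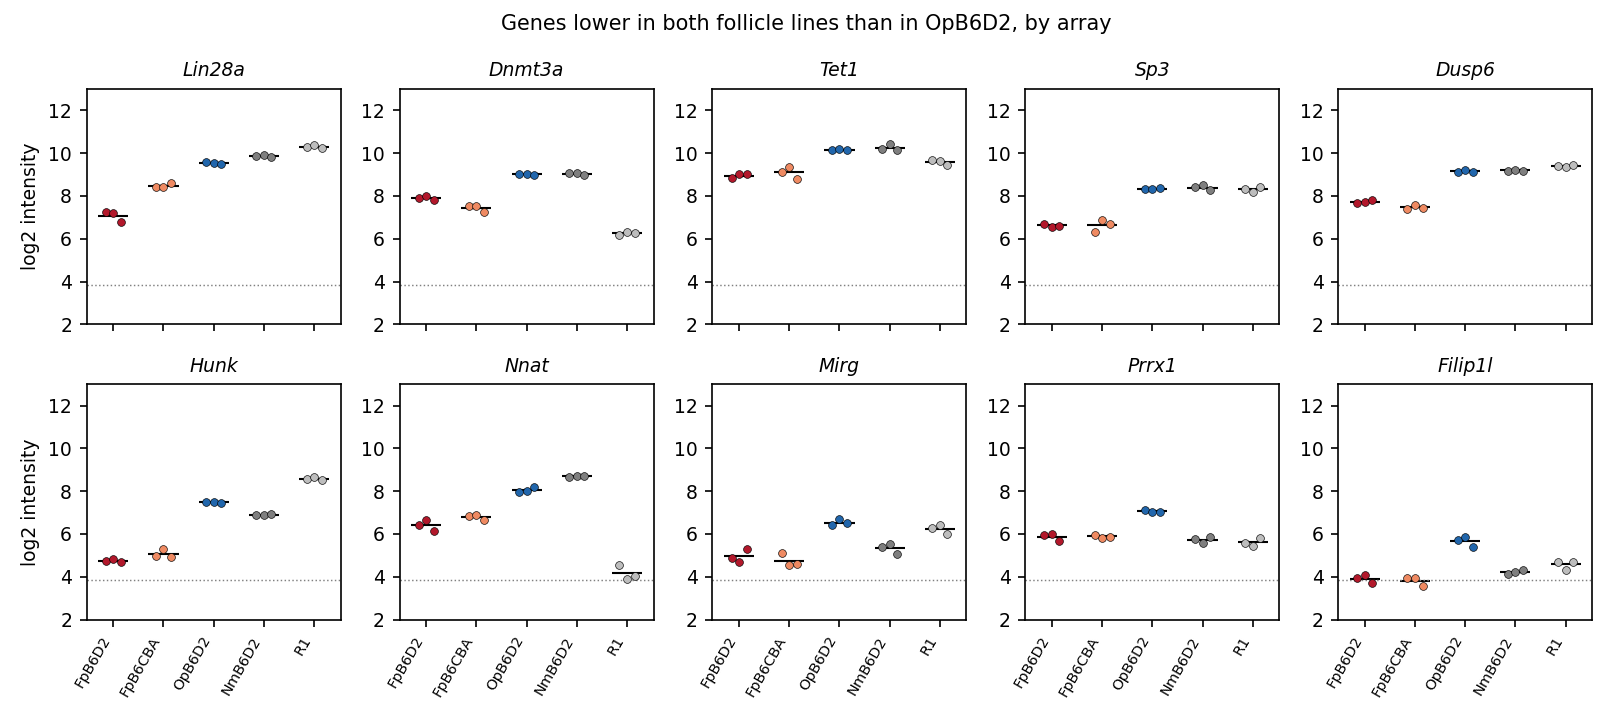
Log2 intensity on each array (points, 3 per line) and line mean (bars) of 10 genes lower in both follicle lines; the dotted line is the filter value of 3.864. OpB6D2 lies above both follicle lines in every panel, NmB6D2 and R1 lie with it for Sp3 and Dusp6, and for Prrx1 they lie with the follicle lines.

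The 2 follicle lines were compared directly with the limma contrast FpB6CBA minus FpB6D2. The difference rests on the means of these 2 lines, while its SE comes from the fit to all 15 arrays, OpB6D2 included. Over all genes tested 1430 (11.2%) were called in it, 6.03% higher and 5.14% lower in FpB6CBA. Of the 141 genes, 21 differed at least 2-fold between the follicle lines: 12 of the higher genes, larger in FpB6CBA for 10 and smaller for 2, and 9 of the lower genes, larger in FpB6CBA for 8 and smaller for 1. The widest gaps were those of Krt19 (3.28, SE 0.10), Krt7 (1.97, SE 0.11) and Fgfbp1 (-1.78, SE 0.14). Among lower genes they were those of Aspa, aspartoacylase (-1.74, SE 0.20), Wnk3, an X-linked kinase (-1.43, SE 0.17), and Fam13b (-1.42, SE 0.10). The same follicle-line arrays chose these genes, so the gaps are a description with no test. The Aspa difference from OpB6D2 in FpB6D2 was -0.62 with the hybridisation covariate, -0.98 with quantile normalisation and -0.99 without OpB6D2 array 5. That of Fam13b was -0.63 with probe sets averaged, -0.95 with quantile normalisation and -0.96 without OpB6D2 array 4, and that of Wnk3 was just short of the limit without FpB6D2 array 3.

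Another 42 genes (0.328%) were called in both follicle lines but opposite ways, 24 higher and 18 lower in FpB6D2, so that OpB6D2 lay between. Pramel6 (1456270_s_at), of a multigene family active in early embryos and germ cells, measured 8.33, 8.34 and 8.43 in FpB6D2, 2.77, 2.73 and 2.73 in FpB6CBA and 5.96, 5.77 and 5.55 in OpB6D2. Pramel7 had the same pattern, with means of 7.74, 2.82 and 5.46. FpB6CBA was under the filter value for both genes, and both probe sets are marked as matching several transcripts. The reverse order held for Liph, a phospholipase, at 4.82, 5.19 and 5.24 in FpB6D2, 9.47, 9.48 and 9.52 in FpB6CBA and 6.89, 6.96 and 6.77 in OpB6D2. Of the 42 genes 7 were X-linked (3.23% of genes tested were), 6 of them higher in FpB6D2. Dcaf12l1 (2.04 and -1.71) and Mcf2 (1.64 and -1.94) were among them. The median of all X-linked genes tested was 0.04 in FpB6D2 and -0.47 in FpB6CBA. The glycolysis and hypoxia list held 0 of 27 genes called the same way and 5 called opposite ways (1.1% and 0.328% of all genes tested). Its medians were -0.25 in FpB6D2 and 0.88 in FpB6CBA.

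The 3 parthenogenetic lines were also set against NmB6D2 and R1, and 2 patterns were counted. Both follicle lines were called away from both fertilised lines, in the direction in which they differed from OpB6D2, for 4 of the 38 higher genes (Serpinb6c, Apoc2, Dkkl1 and Aurkc) and 14 of the 103 lower genes. The 14 include Hunk, Tasor2, Sp3, Otub1, Setd5, Dusp6, Hnrnpl, Vapb, Rps6ka6 and Lin28a. This pattern set no limit on OpB6D2, which was itself called lower than R1 for Serpinb6c (-1.32) and Hunk (-1.11). For Apoc2 OpB6D2 was called lower than NmB6D2 (-1.06) and higher than R1 (1.32). Among all genes tested, 46 (0.359%) were higher and 36 (0.281%) lower in both follicle lines than in both fertilised lines. OpB6D2 instead stood apart, with neither follicle line called against either fertilised line, for 6 higher genes (Hddc3, Plaur, Hbegf, Sorl1, Vldlr and Gprc5a) and 13 lower genes. The 13 include Filip1l, Rnf125, Dapp1, Cavin2, Man2a1, Actg2, Prrx1 and Tfpi2, and over all genes tested these patterns were met by 12 (0.0937%) and 28 (0.219%). For the other 28 higher and 76 lower genes neither pattern held. The same follicle-line and OpB6D2 arrays chose the genes, so these counts are a description.

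The higher genes were spread unevenly over the chromosomes. Chromosome 7 carried 8 of the 38 higher genes (21.1%), Apoc2, Hddc3, Dkkl1, Aurkc, Plaur, Crxos, Ccdc61 and Dbp, against 8.03% of genes tested and 4.85% of the lower genes. In the order of the genes along it, 5 of the 8 lay among the first 258 of 1029 tested genes, a boundary chosen after the values were seen. The median of those 258 genes was 0.28 in FpB6D2 and -0.02 in FpB6CBA, and that of the other 771 was 0.09 and 0.07. The X chromosome carried 4 higher genes (10.5%) and 8 lower genes (7.77%), against 3.23% of genes tested, and its median was 0.04 in FpB6D2 and -0.47 in FpB6CBA. Xist, the RNA that coats the inactive X chromosome, was low in all 3 lines, at 4.59, 4.54 and 4.91.

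**Figure D5:**
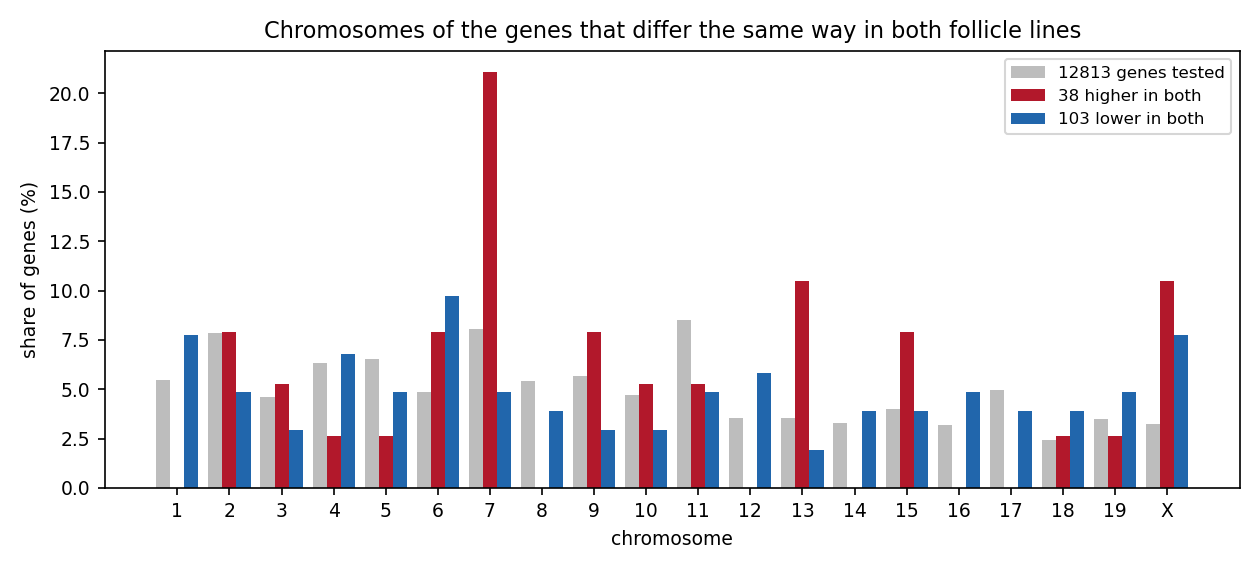
Share of the genes on each chromosome, in percent, for the 12813 genes tested (grey), the 38 higher in both follicle lines (red) and the 103 lower in both (blue). Chromosome 7 holds 21.1% of the higher genes and 8.03% of genes tested, and the bars of higher genes rest on between 0 and 8 genes each.

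Pairs of neighbouring genes were few beside Krt8 with Krt18 and Meg3 with Mirg. Ct55 and 1700013H16Rik, X-linked and both lower, were adjacent among tested genes, and Mns1 and Rfx7 on chromosome 9, both lower, had 1 tested gene between them. Dnmt3a had 2 tested genes between it and 1110002L01Rik, also lower.

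Other probe sets of the same genes gave partial agreement. Of the 38 higher genes 14 had at least 1 other probe set tested, and for 4 of them another was called higher in both lines, in all 6 of 25 other probe sets (24%, against 0.294% of all probe sets tested). Of the 103 lower genes 45 had others, and 22 of 75 other probe sets (29.3%, against 1.13%) were called lower in both. Probe sets of a gene share the arrays that chose it, so this is no independent test. Of 1956 probe sets tested without a gene symbol, 3 were higher and 15 lower in both lines (0.92%).

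With the line in place of the array as the unit, no gene was called. A limma fit on the 5 line means, with the follicle lines, OpB6D2 and the fertilised lines as 3 groups, left 2 residual degrees of freedom and called 0 genes higher and 0 lower, with a lowest adjusted p of 1. At an unadjusted p under 0.05 it had 294 of the 12813 genes tested, fewer than that limit passes when no gene differs. Among them were 20 of the higher and 76 of the lower genes. The same arrays chose those genes for their difference from OpB6D2, so these counts are a description and no test. OpB6D2 is a single line there, assumed to vary like the others.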

How the data were processed

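RNA of 15 samples was hybridised to Affymetrix arrays. The authors' deposited values are log2 intensities for 45101 probe sets, made with RMA and affy, per the submitters' processing notes, without versions. The log2 base was read from the values (1.99 to 13.96). RMA fits probe sets over all arrays together. Differences of dim probe sets can be compressed in such values. The array annotation gave 1 symbol for 34945 probe sets, several for 932 and none for 9160, and 64 were controls. Each gene was read by its brightest probe set with 1 symbol (18193 genes, 18032 of them matched to a RefSeq gene table), and tested if at least 3.864, the median value, on at least 3 arrays. This kept 12813 genes and removed 5380. The number of arrays limits the precision.

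The contrasts come from a linear model with a mean for each line, fitted to the 15 arrays (R 4.3.3 with limma 3.58.1). P values were adjusted by Benjamini-Hochberg. Errors of differences are the fit's SE. Folds against a mean under 3.864 are lower bounds. The fit was tested on simulated data. The genes and the 29 lists (658 of 749 entries matched) were chosen with earlier results of these data known. Genes named are the 12 higher and 12 lower with the largest smaller difference of the 2 lines, up to 4 called per list, 5 called opposite ways, 3 each way that differ most between the follicle lines, 5 each way for each pattern against the fertilised lines, 2 each way on both sides of the threshold, and Pou5f1, Sox2, Nanog, Xist and Lin28a. Clone and predicted-gene symbols were left out. Where a list is described, measured members of it are named too. Any others were named after their values were seen. Array titles number 13 of the 15 samples. The numbers do not pair samples: deviations of same-numbered arrays correlated between -0.181 and 0.127 over 12 pairs. Promoter regions are the 250 bases before the start. Plots were drawn with matplotlib 3.10.9.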

Additional observations from a re-analysis of the deposited data

Results flagged for a closer look

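The differences of the 2 follicle lines from OpB6D2 were themselves compared, as FpB6CBA minus FpB6D2 on the log2 scale. The genes that follow differed at least 2-fold between the lines (limma, adjusted over all genes tested). Most were chosen by the same arrays, those called opposite ways by construction, so these values are a description and not a test. No group has more than 3 arrays, so single arrays were not tested as outliers.

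Among genes higher in both lines, the rise was larger in FpB6CBA for Krt19 (3.28), Krt7 (1.97), Krt18 (1.77), Vldlr (1.76), Krt8 (1.73), Sycp3 (1.37) and Gstm2 (1.13). It was smaller in FpB6CBA for Fgfbp1 (-1.78) and Apoc2 (-1.58). Among genes lower in both lines, the fall was larger in FpB6CBA for Aspa (-1.74), Wnk3 (-1.43), Fam13b (-1.42) and Zdbf2 (-1.35), and smaller for Lin28a (1.39).

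Genes called opposite ways included Liph (4.41) and Dcaf12l1 (-3.75). For Pramel6 (-5.63), Pramel7 (-4.92) and Mcf2 (-3.58) the FpB6CBA mean was under the filter value, so the sizes are not exact, and the gaps are at least 22.7-fold, 14.7-fold and 6.31-fold. Nanog, not called in FpB6D2, differed by -1.59 between the follicle lines, and Gch1, just outside the limit in FpB6D2, by 1.37.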

How the results depend on the processing

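The counts of genes called the same way, 38 higher and 103 lower, rested most on the size limit. At 1.5-fold 231 were higher and 469 lower in both lines (789 and 1114 in FpB6D2, 1591 and 1753 in FpB6CBA), and 149 differed between the follicle lines. A test against a 2-fold difference left 10 higher and 17 lower (53 and 58 in FpB6D2, 321 and 269 in FpB6CBA), and 2 that differed between the lines. With probe sets averaged, 25 were higher and 71 lower in both. In that setting 175 were lower in FpB6D2 and 414 in FpB6CBA, against 312 and 637. Of 140 of the genes then tested 84 kept their call. It turned the direction of 1 of them, Lin28a in FpB6CBA, to 0.20, and probe sets marked as specific turned that of 1 gene. With the hybridisation level as a covariate 182 were lower in both.

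With the replicate number as a block over the 13 numbered arrays, 172 were lower and 35 higher in both. That setting also drops 2 arrays, and the numbers do not pair the samples. The cause of these shifts was not tested. Leaving out each array in turn gave 37 to 43 higher and 91 to 117 lower in both, 168 to 179 and 300 to 332 in FpB6D2, 617 to 713 and 579 to 698 in FpB6CBA, and 17 to 21 that differed between the lines. Between 126 and 138 of the 141 genes kept their calls. No count moved by over 1.5 times with other filters, specific probe sets, centring, quantile normalisation, the 9 arrays alone, other variance models, array weights, an adjusted p under 0.01, no sex-linked genes, or the actin covariate (added after the data were seen: 39 and 121). On line means every setting called 0 genes (130 to 612 at an unadjusted p under 0.05, limma).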

Other observations

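Lower genes outside the naming rule, chosen after their values were seen, included adhesion and matrix genes. Cdh2, the cadherin of neural and mesenchymal cells, differed from OpB6D2 by -1.01 in FpB6D2 and -2.10 in FpB6CBA, and a second probe set by -1.25 and -2.26. Its FpB6CBA mean, like that of Flrt2, was under the filter value, so both are lower bounds in that line (at least 4.03-fold and 4.18-fold). Cdh11, a cadherin of mesenchyme, differed by -1.14 and -1.11. Sulf1, a sulfatase that edits heparan sulfate, differed by -1.44 and -1.35, with a second probe set at -1.58 and -1.67. The guidance genes Sema3c (-1.15 and -1.20) and Flrt2 (-1.05 and -2.19) were lower as well.

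Chromatin and growth regulators were found on both sides. Kdm6b, a histone H3 demethylase that removes a Polycomb mark, was higher by 1.10 and 1.67, with its other probe sets at 0.51 and 0.82 and at -0.01 and 0.12. Cbx5, which encodes a heterochromatin protein, was lower by 1.15 and 1.20 on the log2 scale, although its other 3 probe sets differed by less. Max, the partner of Myc, differed by -1.36 and -1.78, and Rictor, a subunit of the second mTOR complex, by -1.02 and -1.22, while a second Rictor probe set differed by 0.11 and -0.19. Cdkn2a, a cell-cycle inhibitor locus, differed by -1.24 and -1.88.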
